A study of Homo sapiens with 3 samples.

Results

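GCG-moderate cells are cells of stem-cell-derived islets that carried a moderate level of GCG, the glucagon gene, with little RNA of the hormones of neighbouring cell types. They were chosen on measured values. A barcode was kept with at least 1000 genes, at most 20% of UMIs (unique molecules counted) from mitochondrially encoded genes and at least 0.2% of UMIs from MALAT1, a nuclear RNA. Of these, a GCG-moderate cell had at least 150 and under 500 GCG UMIs per 10000, under 300 of INS, under 150 of SST and under 1 of TPH1. The rule took 357 of 5929 kept cells. These were 80 of 2075 CD49a-positive cells, 155 of 1803 CD49a-negative cells and 122 of 2051 unsorted cells.

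The islets were made from cells of HUES8, a line of human embryonic stem cells in wide use, and dispersed. CD49a-positive cells were those retained by magnetic sorting with an antibody to CD49a, the integrin alpha subunit encoded by ITGA1, and CD49a-negative cells were those depleted of it. Unsorted cells did not go through this selection. Each of the 3 groups was re-aggregated, kept for 7 days and then sequenced as 1 droplet library, so the sort preceded the measurement by 7 days and no group had a second library. All groups share this one line, and the labels name no separate cultures.

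Alpha cells are the glucagon-secreting endocrine cells of the islet. Glucagon raises blood glucose by acting on the liver, and it is cut from proglucagon by the convertase that PCSK2 encodes. IRX1 and IRX2 are transcription factors of the alpha lineage, whereas PDX1 and NKX6-1 are factors of the insulin-secreting beta cell. During islet development from stem cells, cells with RNA of more than one hormone occur beside cells of a single hormone.

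The libraries held 127119509 UMIs over 4512 barcodes (CD49a-positive), 88397368 UMIs over 2566 barcodes (CD49a-negative) and 114479071 UMIs over 2811 barcodes (unsorted). In GCG-moderate cells the median was 39667 UMIs in CD49a-positive, 37497 in CD49a-negative and 37260.5 in unsorted cells. Between 6 and 10 barcodes of each library also occurred in another library, among them 1 barcode of a CD49a-positive and 1 of a CD49a-negative GCG-moderate cell. Levels below are CPM, the UMIs of a gene per 1000000 UMIs summed over the cells of 1 class and library, with GCG, INS, SST and TPH1 left out of the total. The sums behind them were 3404402 (CD49a-positive), 6448416 (CD49a-negative) and 4968368 (unsorted) UMIs.

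The hormone values that follow are those the cells were chosen on, and are a description only. The median GCG level was 316 per 10000 UMIs in CD49a-positive, 328 in CD49a-negative and 312 in unsorted GCG-moderate cells. Over all kept cells the medians were 1.15, 7.81 and 2.52 per 10000 in the same order of libraries. INS medians in GCG-moderate cells were 65.1 (CD49a-positive), 64.1 (CD49a-negative) and 81.4 (unsorted) per 10000, and the highest single cell reached 296 per 10000. The class is a range on a continuous scale rather than a separate type. Just inside the lower GCG bound, at 150 to 160 per 10000, lay 3 CD49a-positive, 5 CD49a-negative and 5 unsorted cells, and just outside it, at 140 to 150, lay 1, 9 and 1. Just inside the upper bound, at 480 to 500, lay 2, 6 and 3 cells, and just outside it, at 500 to 520, lay 4, 6 and 5. Just inside the INS bound, at 270 to 300, lay 1, 5 and 6 cells, and just outside it, at 300 to 330, lay 4, 6 and 4.

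A pair of neighbouring classes with the same limits on SST and TPH1 served for comparison. GCG-high cells had at least 500 GCG UMIs per 10000 and INS under 300, and numbered 127 CD49a-positive, 253 CD49a-negative and 236 unsorted cells. GCG-and-INS cells had GCG of at least 150 and INS of at least 300, and numbered 91, 83 and 112 in the same order. All other kept cells, used below, are every kept cell outside the GCG-moderate class. They include the GCG-high and GCG-and-INS cells.

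GRIN3A, DCC, VEGFC and LPAR1 are the markers given for these cells. Their levels are thus a description and no check of the alpha-like label. Markers of other cell types are set beside them. GRIN3A, an NMDA-type glutamate receptor subunit (GRCh38 chromosome 9, 101569353 to 101738580, minus strand), was at 270.2, 158 and 255 CPM in GCG-moderate cells of the CD49a-positive, CD49a-negative and unsorted libraries, against 44.5, 64.8 and 70.0 CPM in all other kept cells. DCC, the netrin receptor of axon guidance (chromosome 18, 52340172 to 53535903, plus strand), was at 1328, 938 and 1535 CPM, against 293, 401 and 374 CPM in all other kept cells. VEGFC, a growth factor of lymphatic vessels (chromosome 4, 176683538 to 176792727, minus strand), was at 177, 127 and 189 CPM, against 22.2, 46.7 and 48.8 CPM. The level of each of the 3 genes in GCG-moderate cells lay above that in the other cells in every library.

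LPAR1, a receptor for lysophosphatidic acid (chromosome 9, 110873263 to 111038458, minus strand), was at 164, 78.5 and 130.0 CPM in GCG-moderate cells of the CD49a-positive, CD49a-negative and unsorted libraries, against 20.7, 35.4 and 29.1 CPM in all other kept cells. For all 4 markers the CD49a-negative library had the lowest level of the 3 among GCG-moderate cells. GCG itself chose the cells and says nothing further about their type. Markers of acinar, mesenchymal and endothelial cells were near 0: summed over each list they reached at most 1.21, 2.02 and 0.155 CPM in any library. Summed delta-cell markers without SST were at 210 (CD49a-positive), 174 (CD49a-negative) and 207 (unsorted) CPM in GCG-moderate cells, below the 369, 215 and 272 CPM of all other kept cells. Summed duct markers were at 84.3, 106 and 83.3 CPM in GCG-moderate cells, against 62.2, 114 and 84.2 CPM in all other kept cells.

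**Figure D1:**
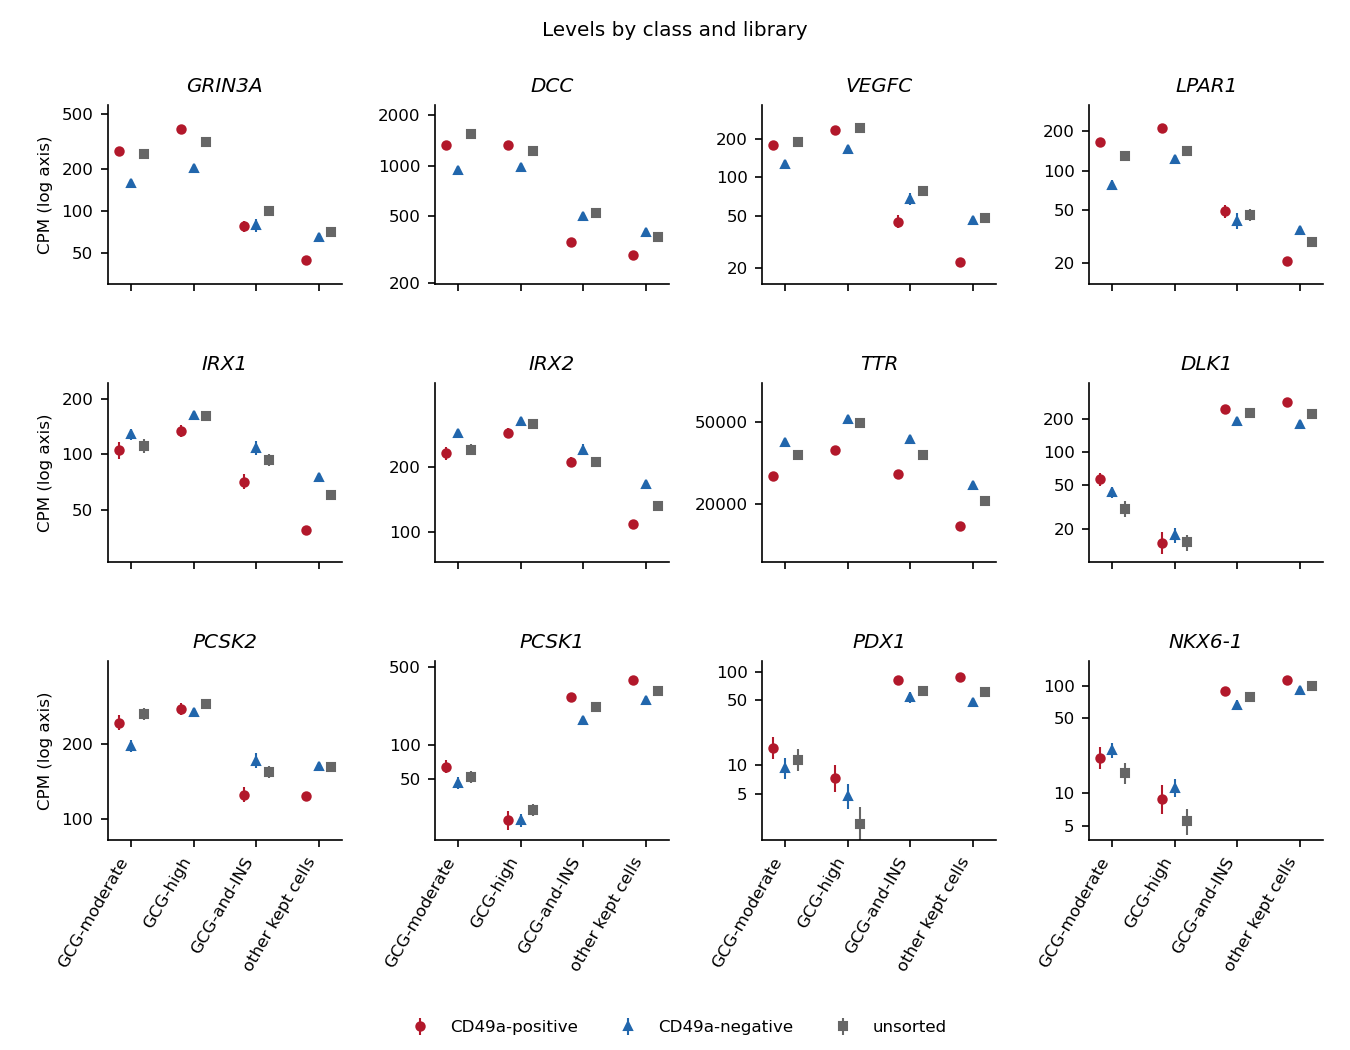
Levels of 12 genes (CPM, log axis) in GCG-moderate, GCG-high, GCG-and-INS and all other kept cells, 1 point per library with its exact 95% Poisson interval (counting error only). GRIN3A, VEGFC and LPAR1 in GCG-moderate cells lie below GCG-high cells and above GCG-and-INS cells in each library, and PCSK1, PDX1 and NKX6-1 lie above GCG-high cells and below GCG-and-INS cells.

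GCG-moderate cells made up a smaller share of the CD49a-positive library and a larger share of the CD49a-negative library than of the unsorted one. The share of kept cells was 3.86% in CD49a-positive (exact binomial 95% interval 3.07 to 4.78), 8.60% in CD49a-negative (7.34 to 9.99) and 5.95% in unsorted cells (4.96 to 7.06). The difference was -2.09 points for CD49a-positive minus unsorted cells (95% interval -3.43 to -0.777). It was 2.65 points for CD49a-negative minus unsorted cells (1.01 to 4.32) and -4.74 points for CD49a-positive minus CD49a-negative cells (-6.31 to -3.22). These intervals exclude 0 but cover counting error only, and with 1 library per group no test of the sort was possible. GCG-high cells had shares of 6.12%, 14.0% and 11.5% in the CD49a-positive, CD49a-negative and unsorted libraries.

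The balance between moderate and high GCG did not differ beyond counting error. GCG-moderate cells were 38.6% (CD49a-positive, 95% interval 32.0 to 45.6), 38.0% (CD49a-negative, 33.3 to 42.9) and 34.1% (unsorted, 29.2 to 39.2) of GCG-moderate and GCG-high cells combined. The 3 intervals overlapped. The difference was 4.57 points for CD49a-positive minus unsorted cells (-3.56 to 12.8) and 3.91 points for CD49a-negative minus unsorted cells (-2.91 to 10.6). It was 0.657 points for CD49a-positive minus CD49a-negative cells (-7.32 to 8.84), and a shift between the classes was not detectable at these cell numbers.

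**Figure D2:**
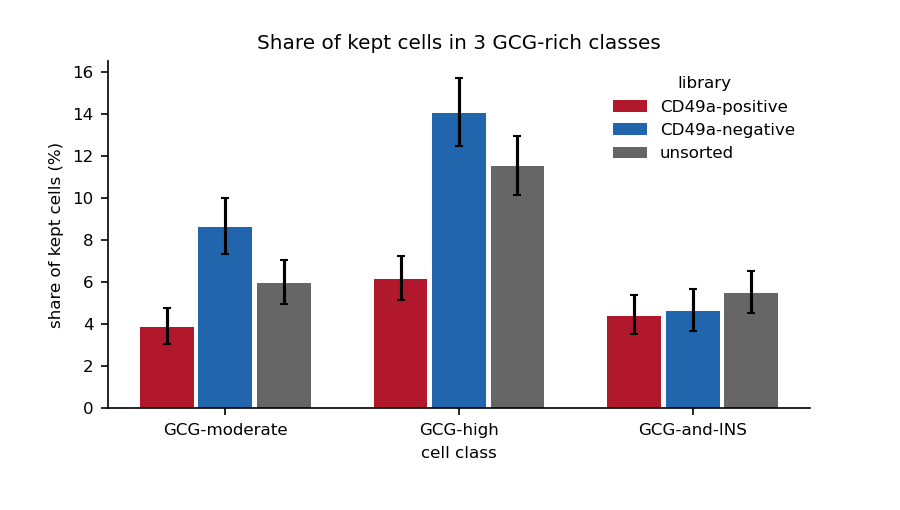
Share of kept cells (%) in the GCG-moderate, GCG-high and GCG-and-INS classes, 1 bar per library, with exact binomial 95% intervals. The GCG-moderate bars stand at 3.86% (CD49a-positive), 8.60% (CD49a-negative) and 5.95% (unsorted).

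Against GCG-high cells, GCG-moderate cells had less RNA of most alpha-cell genes and more of several beta-cell genes. The comparison was fitted on UMI sums with edgeR's quasi-likelihood test, 1 sum per class and library (n = 3 libraries), with the library as a block and Benjamini-Hochberg adjustment over all 15529 genes tested. At an adjusted p under 0.05, 1551 genes (9.99%) were higher and 1569 genes (10.1%) were lower in GCG-moderate cells. The median log2 fold change of all genes tested was 0.00. The p-values measure only the spread between these 3 libraries, and without the library block the same test called 159 higher and 24 lower genes, among them 10 higher axon guidance genes and 2 higher beta markers but no alpha marker and no ribosomal gene. Of the 19 alpha markers, 17 were tested besides GCG: 13 were lower, 0 were higher and 4 did not pass, with a median log2 fold change of -0.39.

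GRIN3A was at 385, 204 and 312 CPM in GCG-high cells of the CD49a-positive, CD49a-negative and unsorted libraries, each above the GCG-moderate level of its library. Its log2 fold change (moderate over high) was -0.45 ± 0.07 (SE, edgeR adjusted p = 0.000600). VEGFC had a log2 fold change of -0.45 ± 0.07 (edgeR adjusted p = 0.000547) and LPAR1 one of -0.43 ± 0.09 (edgeR adjusted p = 0.00307). DCC did not pass, with 1328, 985 and 1220 CPM in GCG-high cells and a log2 fold change of 0.02 ± 0.08 (edgeR adjusted p = 0.881). LPAR1 lost its call without the CD49a-negative library (edgeR adjusted p = 0.0780), with cells thinned to 10000 UMIs (edgeR adjusted p = 0.380) and with INS under 100 (edgeR adjusted p = 0.116).

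The alpha-lineage factors IRX1 and IRX2 were lower as well. IRX1 was at 105, 129 and 111 CPM in GCG-moderate cells of the CD49a-positive, CD49a-negative and unsorted libraries, against 134, 163 and 161 CPM in GCG-high cells (log2 fold change -0.47 ± 0.07). IRX2 fell by 0.36 on the log2 scale, and TTR, which encodes the thyroid hormone carrier transthyretin and is abundant in alpha cells, fell by 0.50. TTR had 27284, 40009 and 34616 CPM in GCG-moderate cells, against 36642, 51297 and 49461 CPM in GCG-high cells. For IRX1 and TTR the GCG-moderate level was below the GCG-high level in each library, although the classes overlapped across libraries for TTR.

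Genes of glucagon production and its granule moved unequally. PCSK2, the convertase that releases glucagon, was at 243.5, 196 and 264 CPM in GCG-moderate cells of the CD49a-positive, CD49a-negative and unsorted libraries, against 276, 268 and 289 CPM in GCG-high cells (log2 fold change -0.32 ± 0.08, edgeR adjusted p = 0.00849). PCSK1, the convertase of proinsulin, was at 64.6, 46.1 and 52.5 CPM, against 21.3, 21.3 and 26.5 CPM (1.13 ± 0.11, edgeR adjusted p = 2.97e-05). In all other kept cells PCSK1 stood at 382, 254 and 304 CPM, far above both classes. Of 28 tested genes of prohormone processing and the secretory granule, 5 were higher, 9 lower and 14 did not pass. The granule protein genes SCG5 and CHGA were among the lower ones, at -0.61 and -0.38, and PAM, which amidates peptide hormones, was among the higher ones at 0.59.

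Of 12 tested beta markers 6 were higher and 1 was lower in GCG-moderate cells. PDX1 was at 15.57, 9.305 and 11.47 CPM in GCG-moderate cells of the CD49a-positive, CD49a-negative and unsorted libraries, against 7.38, 4.69 and 2.39 CPM in GCG-high cells (log2 fold change 1.32 ± 0.24, edgeR adjusted p = 0.00152). NKX6-1 was at 21.44, 24.97 and 15.30 CPM, against 8.82, 11.1 and 5.50 CPM (1.22 ± 0.15). DLK1, a membrane protein of the Notch ligand family, was at 56.7, 43.3 and 30.8 CPM, against 15.2, 17.6 and 15.3 CPM (1.30 ± 0.14). For PDX1, NKX6-1 and DLK1 the lowest GCG-moderate library lay above the highest GCG-high library. They were picked from the genes called, so this describes them and is no further evidence.

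HADH, an enzyme of fatty acid oxidation and a beta marker, was also higher in GCG-moderate than in GCG-high cells, at 0.86 ± 0.12. ERO1B and CASR, at 0.30 and 0.31, completed the 6 higher beta markers, and SLC30A8, the granule zinc transporter, was the lower one at -0.29. These genes were far more abundant in all other kept cells, where PDX1 was at 88.3 (CD49a-positive), 47.4 (CD49a-negative) and 61.8 (unsorted) CPM. The part of free RNA, or of a second cell in a droplet, in the difference was not tested. The median INS level also differed, at 65.1, 64.1 and 81.4 per 10000 in GCG-moderate cells, against 44.8, 50.5 and 50.6 in GCG-high cells. With cells of both classes limited to INS under 100, an alternative chosen after seeing the data, 3 beta markers were higher and 1 lower of 11 tested.

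The 10 largest increases among genes of at least 50 CPM included CCSER1, PLD5, BRINP3, NPSR1-AS1, SEMA6D, PCSK1, CTNNA3, DACH2 and TRPM3. For 9 of the 10 the level in all other kept cells was above that in GCG-moderate cells in each library, with TRPM3 as the exception. Over all genes called higher this held for 30.9%, against 25.3% of all genes tested. The opposite order was more common. Other kept cells were below GCG-moderate cells in each library for 44.6% of genes called higher, against 31.5% of all genes tested. CCSER1 was at 1558, 326 and 952 CPM in GCG-moderate cells of the CD49a-positive, CD49a-negative and unsorted libraries, against 443, 230.5 and 128 CPM in GCG-high cells (log2 fold change 1.67 ± 0.27, edgeR adjusted p = 0.000912), and DESeq2 did not call it (adjusted p = 0.0513). TRPM3, a cation channel, was at 107, 93.8 and 89.6 CPM, against 51.7, 41.6 and 46.0 CPM (0.998 ± 0.08), with 141, 81.7 and 113 CPM in all other kept cells. NPSR1-AS1 is an antisense gene, and whether the counting used strand is not given in the sources used here.

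The 10 largest decreases were TMEM190, FXYD3, FABP5, B2M, IGFBP2, C15orf48, BTG1, PRDX4, CXCL1 and PLIN3, with log2 fold changes of -1.01 to -0.66. CXCL1 lost its call with DESeq2 (adjusted p = 0.151) and without the CD49a-negative library (edgeR adjusted p = 0.0851). TMEM190 was at 63.7, 84.2 and 87.96 CPM in GCG-moderate cells of the CD49a-positive, CD49a-negative and unsorted libraries, against 155, 141 and 163 CPM in GCG-high cells. FXYD3, a regulator of the sodium pump, was at 30.3, 55.7 and 60.8 CPM, against 74.0, 102 and 95.2 CPM. B2M, the invariant chain of class I antigen presentation, was at 182, 256 and 170.5 CPM, against 283, 395 and 329 CPM. TMEM190, FXYD3 and B2M did not overlap between the classes. The 10 genes were chosen among those called with the same sign in each library, so this is no further evidence. Of 11 tested genes of interferon response and antigen presentation, 4 were lower and 0 higher. HLA genes have near-identical copies, so their counts are uncertain.

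Genes of axon guidance and cell adhesion build contacts between neurons and are expressed in endocrine cells. As a group they were higher in GCG-moderate than in GCG-high cells. Of 45 tested, 28 were higher, 1 was lower and 16 did not pass, with a median log2 fold change of 0.42. Among them EPHA3, an ephrin receptor, was at 96.6, 67.3 and 95.6 CPM in GCG-moderate cells of the CD49a-positive, CD49a-negative and unsorted libraries, against 54.1, 36.8 and 52.8 CPM in GCG-high cells (0.79 ± 0.07). EFNA5, an ephrin, rose by 0.80, UNC5D, a netrin receptor, by 0.86 and the semaphorin SEMA6D by 1.15. The 1 lower member was UNC5C, another netrin receptor, at -0.26 ± 0.08. Of 35 tested channels of electrical excitability 20 were higher and 1 lower, and of 23 tested glutamate and GABA receptor genes 11 were higher and 1 lower. The lower members of these lists were KCNK16, a potassium channel, at -0.35 and GRIN3A. The calcium channel subunit CACNA1E was at 50.8, 27.8 and 37.4 CPM, against 18.2, 13.3 and 14.6 CPM (1.23 ± 0.11). The metabotropic glutamate receptor GRM7 was at 66.7, 33.3 and 34.2 CPM, against 22.8, 12.5 and 20.4 CPM (1.15 ± 0.14). Summed axon guidance genes were at 12435, 8838 and 12118 CPM in GCG-moderate cells, in the same order of libraries. Their sums were 10343, 7457 and 8613 CPM in GCG-high cells and 11548, 9215 and 10808 CPM in all other kept cells. Summed channels were at 9895, 7454 and 9093 CPM, against 10000.5, 7534 and 8834 CPM in all other kept cells. Summed glutamate and GABA receptor genes were at 2100, 1628 and 1955 CPM, against 1733, 1569 and 1740 CPM there.

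Genes of cytosolic ribosomal proteins and nuclear genes of oxidative phosphorylation were lower in GCG-moderate than in GCG-high cells. All 23 tested genes of cytosolic ribosomal proteins and associated factors were lower, with a median of -0.41. Of 22 nuclear genes of oxidative phosphorylation 21 were lower, with a median of -0.42, and SDHB did not pass. Of 13 mitochondrially encoded genes 1 was higher, MT-ND2 at 0.25, and 12 did not pass. COX5A, a cytochrome oxidase subunit, was at 173, 205 and 163 CPM in GCG-moderate cells of the CD49a-positive, CD49a-negative and unsorted libraries, against 215, 276 and 263 CPM in GCG-high cells. Of 15 immediate early genes 8 were lower and 0 higher, with ZFP36 at -0.59 and FOS at -0.37, and of 17 genes of the unfolded protein response 6 were lower and 0 higher. Ribosomal protein genes have many near-identical pseudogenes, so their counts are uncertain.

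The genes that differed also differed in length and in a nuclear RNA. The median gene body was 185 kb among genes higher in GCG-moderate cells, 11.98 kb among lower genes and 34.1 kb among all genes tested. The median share of MALAT1 was 2.01%, 1.94% and 2.001% of UMIs in GCG-moderate cells of the CD49a-positive, CD49a-negative and unsorted libraries, against 1.63%, 1.62% and 1.71% in GCG-high cells. Among cells with MALAT1 at 1 to 3% of UMIs, a window chosen after seeing the data, 3095 of the 3096 called genes still tested kept their direction and 1368 were called again. The window held 57, 100 and 89 of the same GCG-moderate cells in the same order of libraries. A kept direction was therefore likely from the start and is no separate evidence. In this window 20 axon guidance genes were higher, 20 oxidative phosphorylation genes were lower, and 23 ribosomal genes were lower. The difference in length remained there, with a median gene body of 229 kb among higher and 10.7 kb among lower genes.

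**Figure D3:**
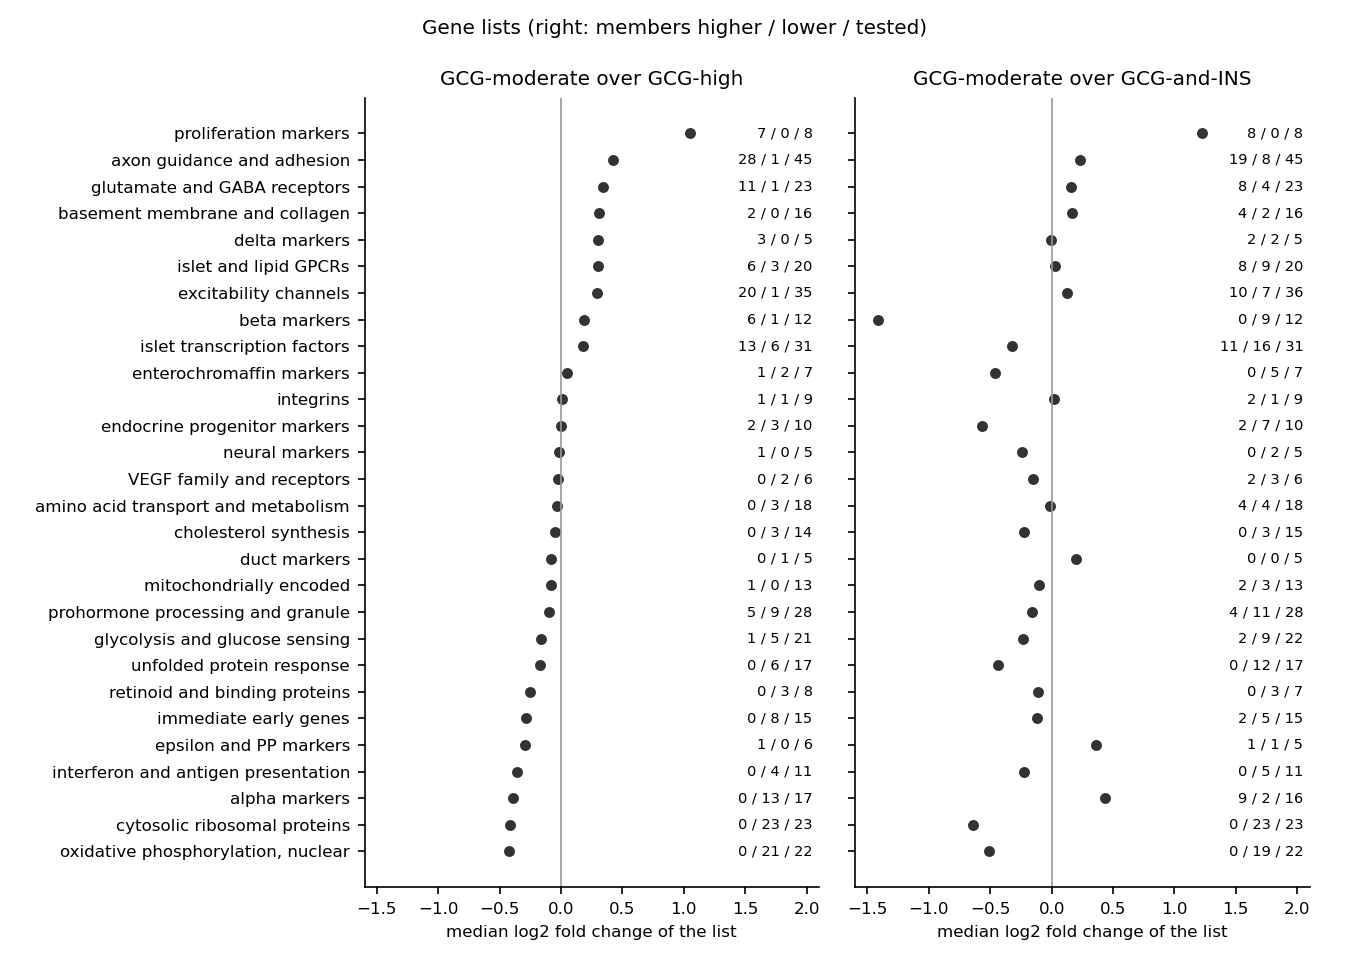
Median log2 fold change of each gene list in GCG-moderate over GCG-high cells (left panel) and over GCG-and-INS cells (right panel), with the numbers of genes higher, lower and tested at an edgeR adjusted p under 0.05. Ribosomal and oxidative phosphorylation genes lie left of 0 in both panels, and alpha markers lie left of 0 against GCG-high cells and right of 0 against GCG-and-INS cells. The alpha markers include GRIN3A, DCC, VEGFC and LPAR1, the markers given for GCG-moderate cells.

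Among islet transcription factors, 13 of 31 tested were higher than in GCG-high cells and 6 lower. The lower ones included IRX1, NEUROD1, IRX2 and FEV, at -0.47 to -0.27. Higher ones included PAX4, a factor of beta and delta cell formation, at 0.93 ± 0.15 and HHEX, the delta-cell factor, at 0.72 ± 0.15. HHEX was at 14.98, 22.95 and 17.11 CPM in GCG-moderate cells of the CD49a-positive, CD49a-negative and unsorted libraries, against 8.41, 11.3 and 12.1 CPM in GCG-high cells. LEPR, the leptin receptor and a delta marker, was at 18.2, 15.2 and 18.7 CPM, against 8.20, 9.07 and 10.5 CPM (0.81 ± 0.15). HHEX and LEPR were at 10.7, 23.8 and 14.5 CPM and at 8.85, 10.7 and 9.73 CPM in all other kept cells. LEPR in GCG-moderate cells thus exceeded both sets of cells in each library, although the other kept cells include the GCG-high cells.

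A few receptors of islet hormones and lipids also differed. GIPR, the receptor of the incretin GIP, was at 97.5, 87.2 and 103 CPM in GCG-moderate cells of the CD49a-positive, CD49a-negative and unsorted libraries, against 74.6, 69.9 and 65.6 CPM in GCG-high cells (log2 fold change 0.39 ± 0.08, edgeR adjusted p = 0.00356). GLP1R was at 9.40, 6.05 and 4.83 CPM, against 2.0504, 5.403 and 3.009 CPM, and did not pass (edgeR adjusted p = 0.114). FFAR1, a fatty acid receptor, fell by 0.50. Of 20 tested G-protein-coupled receptors of islet hormones and lipids 6 were higher and 3 lower. Over all genes tested 9.99% were higher and 10.1% lower.

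Proliferation markers were higher in GCG-moderate cells, on the basis of few cells. Of 8 markers 7 passed, with a median log2 fold change of 1.05. MKI67 was at 28.5, 15.2 and 12.7 CPM in GCG-moderate cells of the CD49a-positive, CD49a-negative and unsorted libraries, against 1.23, 2.75 and 6.85 CPM in GCG-high cells (2.09 ± 0.36, edgeR adjusted p = 0.00125). The GCG-moderate sums of MKI67 rested on 97, 98 and 63 UMIs. Cells with at least 5 UMIs of these markers per 10000 were 4 of 80, 10 of 155 and 3 of 122 GCG-moderate cells, against 2 of 127, 5 of 253 and 5 of 236 GCG-high cells, and their exact binomial intervals overlapped in every library. DESeq2 called 0 of the 8 markers, and TYMS did not pass in edgeR. Without cells that held at least 1 UMI of the markers per 10000, an alternative chosen after seeing the data, 2 of the markers were tested and neither was called, while the counts for alpha markers (14 lower), axon guidance (28 higher) and ribosomal genes (23 lower) stood close to those above.

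Against GCG-and-INS cells, GCG-moderate cells had more RNA of the 4 markers and less of the beta genes. The same test on 15541 genes called 2572 genes (16.5%) higher and 2537 genes (16.3%) lower in GCG-moderate cells, and the median log2 fold change of all genes tested was -0.01. Both comparisons use the same GCG-moderate sums. INS chose these classes and is not tested. GCG-and-INS cells were deeper, with median UMIs of 39667, 37497 and 37260.5 in GCG-moderate cells of the CD49a-positive, CD49a-negative and unsorted libraries, against 83267, 62273 and 81818 in GCG-and-INS cells. The median MALAT1 share was 2.01%, 1.94% and 2.001%, against 0.937%, 1.16% and 1.22%. In this comparison the median gene body was 126 kb among higher genes, 14.4 kb among lower genes and 34.2 kb among all genes tested.

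GRIN3A was at 77.3, 78.5 and 100.4 CPM in GCG-and-INS cells of the CD49a-positive, CD49a-negative and unsorted libraries, below the GCG-moderate level in each library (log2 fold change 1.31 ± 0.12, edgeR adjusted p = 8.54e-06). DCC was at 349, 503 and 518 CPM there (1.38 ± 0.15), VEGFC at 45.3, 67.8 and 78.5 CPM (1.28 ± 0.15) and LPAR1 at 49.3, 41.7 and 46.3 CPM (1.32 ± 0.13). PCSK2 was higher in GCG-moderate cells by 0.56. No GCG-and-INS library reached the lowest GCG-moderate library for GRIN3A, DCC, VEGFC or LPAR1. These are the markers given for GCG-moderate cells, so this is a description only. Of 16 tested alpha markers 9 were higher and 2 were lower, with CRYBA2, a lens crystallin gene expressed in islets, among the lower ones at -0.29. The higher ones include GRIN3A, DCC, VEGFC and LPAR1 themselves, so this count is no separate support for the alpha-like label. TTR and IRX2 did not pass.

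Of 12 tested beta markers 0 were higher and 9 were lower, with a median of -1.42. PDX1 was at 15.57, 9.305 and 11.47 CPM in GCG-moderate cells of the CD49a-positive, CD49a-negative and unsorted libraries, against 82.6, 53.6 and 62.1 CPM in GCG-and-INS cells (-2.54 ± 0.12, edgeR adjusted p = 2.20e-08). NKX6-1 was at 21.44, 24.97 and 15.30 CPM, against 89.7, 66.0 and 78.2 CPM (-1.99 ± 0.15). IAPP, which encodes the beta-cell peptide amylin, was at 379, 191 and 144 CPM, against 1702, 876 and 1006 CPM (-2.47 ± 0.13). The classes did not overlap for PDX1, NKX6-1 or IAPP, which were picked from the genes called, so this is no further evidence. G6PC2 fell by 3.38, and the glucose transporter gene SLC2A2 was at 0, 0.310 and 0.201 CPM in GCG-moderate cells, against 7.99, 0.838 and 3.65 CPM, where both rest on very few UMIs.

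The 10 largest increases over GCG-and-INS cells were AC097518.2, SNTG2, EPHA3, CNTN5, HS3ST4, DOCK4, ZNF385D, KCNIP4, NRXN3 and DCC. For all 10 the level in GCG-moderate cells was above that in all other kept cells in each library, as it was for 79.4% of all genes called higher and 31.1% of genes tested. CNTN5, a neural adhesion molecule, was at 140, 125 and 163 CPM in GCG-moderate cells of the CD49a-positive, CD49a-negative and unsorted libraries, against 33.3, 33.3 and 59.0 CPM in GCG-and-INS cells (1.70 ± 0.12). NRXN3, a presynaptic adhesion molecule, was at 1103, 659 and 1111 CPM, against 293, 326 and 363 CPM (1.43 ± 0.14). The 10 largest decreases were NPTX2, BACE2, PDX1, IAPP, DLK1, CALB2, PCSK1, PAX4, HADH and NKX6-1. NPTX2, a neuronal pentraxin, was at 28.5, 22.8 and 12.1 CPM, against 166, 112 and 132 CPM (-2.79 ± 0.16), and CALB2, the calcium binding protein calretinin, was at 81.7, 40.3 and 58.2 CPM, against 289, 225 and 285 CPM (-2.28 ± 0.12).

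Several groups kept the direction they had against GCG-high cells. The 23 ribosomal genes were all lower (median -0.64), 19 of 22 oxidative phosphorylation genes were lower (median -0.51), and 12 of 17 genes of the unfolded protein response were lower, among them DNAJB9 at -1.02 and XBP1 at -0.90. All 8 proliferation markers were higher, on the UMIs of few cells. At least 5 UMIs per 10000 of these markers were found in 4 of 80 CD49a-positive, 10 of 155 CD49a-negative and 3 of 122 unsorted GCG-moderate cells, against 1 of 91, 2 of 83 and 3 of 112 GCG-and-INS cells. In the unsorted library the share was 2.46% of GCG-moderate cells, against 2.68% of GCG-and-INS cells. With cells of at least 1 such UMI per 10000 left out, 2 of the markers were tested and 1 was higher. Axon guidance genes were mixed, with 19 higher and 8 lower of 45, and members of one pathway had opposite signs. SLIT2, a repulsive guidance ligand, was higher at 1.71, and its receptor genes split, with ROBO1 at 1.16 and ROBO2 at -1.22. In the MALAT1 window of 1 to 3%, 20 ribosomal genes, 7 oxidative phosphorylation genes and 9 beta markers were lower.

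Across bands of GCG, among cells under the same limits on INS, SST and TPH1, the alpha genes did not all follow the hormone. This is a description with no test, and the bands from 150 to 500 are the GCG-moderate cells. IRX2 in the CD49a-positive library stood at 60.5 CPM below 50 GCG UMIs per 10000 and at 193 CPM at 50 to 150, and then at 236, 231 and 230.5 CPM over the 3 bands up to 500, 255 CPM up to 1000 and 340.5 CPM above. In the CD49a-negative library IRX2 was at 149.97 CPM in the lowest band and between 236 and 339 CPM in the others. In the unsorted library IRX2 was at 122 CPM in the lowest band and between 215 and 344 CPM in the others. The largest relative step of IRX2 in each library thus lay between the lowest 2 bands, below the GCG-moderate range.

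B2M was higher above the GCG-moderate range than within it. B2M in the unsorted library was at 185, 183 and 151 CPM over the 3 GCG-moderate bands, 269 CPM at 500 to 1000 and 401 CPM above 1000. DCC had its lowest level among the upper 6 bands of the CD49a-positive library above 1000 GCG, at 928 CPM, and stood at 1333, 1143 and 1410 CPM in the GCG-moderate bands. PCSK1 ran the opposite way in the CD49a-positive library, with 250 CPM in the lowest band, 85.8, 64.4 and 51.2 CPM over the GCG-moderate bands and 12.6 CPM in the highest. Its course was less even in unsorted cells, at 42.7, 94.7 and 28.4 CPM over the GCG-moderate bands.

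**Figure D4:**
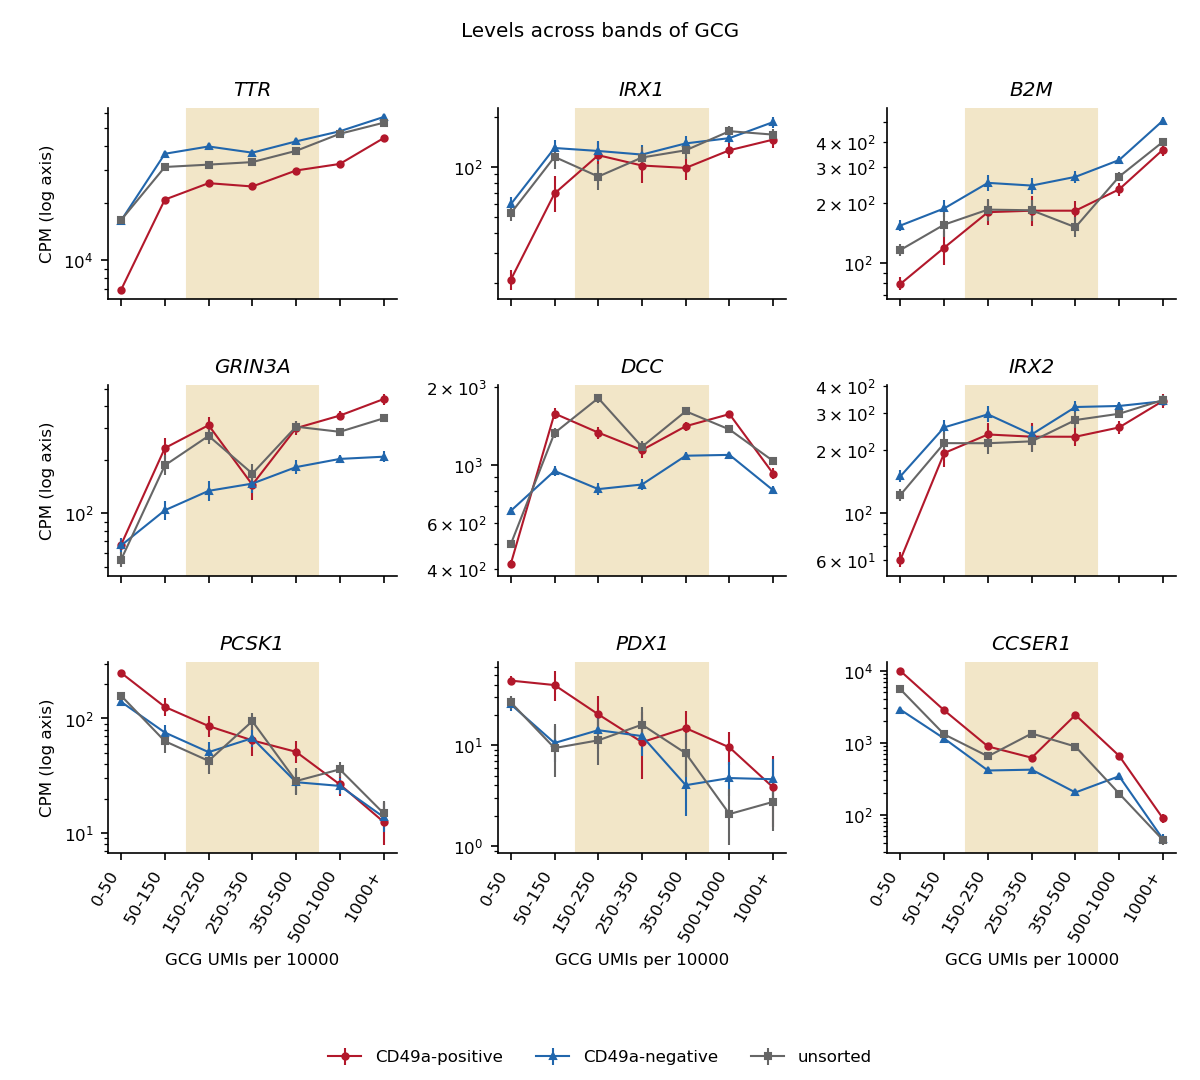
Levels of 9 genes (CPM, log axis) across 7 bands of GCG UMIs per 10000 among cells under the limits on INS, SST and TPH1, 1 line per library with exact 95% Poisson intervals. The shaded bands, 150 to 500, hold the GCG-moderate cells. IRX2 has its largest step below the shaded range, TTR and B2M are highest in the top band, and PCSK1 is lowest there.

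Within GCG-moderate cells PDX1 and NKX6-1, transcription factors of beta cells, were highest where INS was highest. The summed IAPP level had no common order over INS bands. The cells were split by INS at 0 to 50, 50 to 150 and 150 to 300 UMIs per 10000, which gave 34, 29 and 17 CD49a-positive, 67, 48 and 40 CD49a-negative, and 39, 56 and 27 unsorted cells. INS belongs to the rule, so this is a description with no test. PDX1 was at 3.24, 7.91 and 38.8 CPM from the lowest to the highest INS band of the CD49a-positive library, at 4.23, 8.96 and 16.4 CPM in the CD49a-negative library and at 2.33, 9.60 and 24.1 CPM in the unsorted library. NKX6-1 was at 4.85, 7.03 and 57.2 CPM in the CD49a-positive library, at 18.1, 15.8 and 43.0 CPM in the CD49a-negative library and at 5.45, 9.18 and 36.5 CPM in the unsorted library. Both genes were highest in the highest INS band of each library. IAPP, the beta-cell peptide amylin, was at 687, 145 and 267 CPM from the lowest to the highest band of the CD49a-positive library, at 186, 181 and 207 CPM in the CD49a-negative library and at 97.3, 231 and 26.4 CPM in the unsorted library. Its order over the bands differed between the libraries. The CD49a-positive bands held 849, 165 and 275 IAPP UMIs. A single cell held 60.9% of the IAPP UMIs of that library, which only the lowest band could contain. Over cells, the Spearman correlation of IAPP with INS was 0.33 in CD49a-positive, 0.04 in CD49a-negative and 0.05 in unsorted cells.

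PCSK1 was at 38.8, 41.3 and 121 CPM from the lowest to the highest INS band in CD49a-positive cells, and at 35.02, 32.98 and 106.4 CPM in unsorted cells. In CD49a-negative cells it was at 36.2, 41.1 and 64.0 CPM. Over cells, the Spearman correlation of PCSK1 with INS was 0.26 in CD49a-positive, 0.003 in CD49a-negative and -0.006 in unsorted cells. The summed CCSER1 level rose with INS in CD49a-positive cells, at 299, 1507 and 3125 CPM. It also rose in unsorted cells, at 142, 468 and 2659 CPM, but stood at 273, 363 and 360.0 CPM in CD49a-negative cells. Over cells, the Spearman correlation of CCSER1 with INS was 0.23 in CD49a-positive, 0.09 in CD49a-negative and 0.10 in unsorted cells. A single cell held 23.3% of the unsorted CCSER1 UMIs, so band sums can rest on few cells. The summed GRIN3A level fell over the bands. It was at 323, 305 and 169 CPM in CD49a-positive, 171, 166 and 134 CPM in CD49a-negative and 337, 256 and 170.0 CPM in unsorted cells. Its Spearman correlation with INS over cells was weak, at -0.12, -0.10 and -0.009 in the same order of libraries. IRX1 stayed between 99.5 and 142 CPM and IRX2 between 221 and 326 CPM over all bands and libraries. Median INS in all kept cells was 559 (CD49a-positive), 76.5 (CD49a-negative) and 166 (unsorted) per 10000, and the part of free INS RNA in these bands was not tested.

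Some genes were carried by single cells. CCSER1, the histone gene HIST1H4C and IAPP ranked among the 30 most overdispersed genes of GCG-moderate cells in every library, of 4204 (CD49a-positive), 4206 (CD49a-negative) and 4196 (unsorted) genes ranked. The single highest cell held 60.9% of the IAPP UMIs of CD49a-positive, 19.7% of CD49a-negative and 28.6% of unsorted GCG-moderate cells. The median cell had 0.446 (CD49a-positive), 0 (CD49a-negative) and 0.171 (unsorted) IAPP UMIs per 10000, and the highest had 139, 59.1 and 57.6. For CCSER1 the highest cell held 19.7%, 15.3% and 23.3% of the UMIs. Over cells, the Spearman correlation of GCG with GRIN3A was 0.06 in CD49a-positive, 0.14 in CD49a-negative and 0.06 in unsorted cells (80, 155 and 122 cells of 1 library each), which in such sparse counts is no finding.

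Between the libraries, few genes of GCG-moderate cells were 2-fold apart. With 1 library per group there is no test, and the rule of size was a 2-fold ratio after 10 CPM were added to both sides, among genes with at least 50 CPM and 50 UMIs in the higher library. In CD49a-positive over unsorted cells, 2 of 4413 genes (0.0453%) were higher and 1 (0.0227%) was lower. In CD49a-negative over unsorted cells, 1 of 4448 genes (0.0225%) was higher and 3 (0.0674%) were lower. In CD49a-positive over CD49a-negative cells, 13 of 4513 genes (0.288%) were higher and 2 (0.0443%) were lower. The 3 comparisons share their libraries.

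NPW, which encodes the peptide neuropeptide W, set the CD49a-negative library apart. It was at 165 CPM in CD49a-positive, 360.4 CPM in CD49a-negative and 95.001 CPM in unsorted GCG-moderate cells, on 563, 2324 and 472 UMIs. The CD49a-negative level was 3.79 times the unsorted one (95% interval 3.43 to 4.20, counting error only), with a log2 ratio of 1.82, or 1.85 without the highest cell of each library. The same order held outside these cells: NPW was at 163, 463 and 103 CPM in GCG-high cells and at 87.7, 318 and 84.2 CPM in all other kept cells. The NPW difference was thus present in the whole library and not particular to GCG-moderate cells.

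CCSER1 was the gene farthest apart between the sorted libraries, at 1558 CPM in CD49a-positive and 326 CPM in CD49a-negative GCG-moderate cells (log2 ratio 2.22), with 952 CPM in unsorted cells (log2 ratio of CD49a-negative over unsorted -1.52). In all other kept cells CCSER1 stood in the same order, at 6085, 2408 and 3979 CPM. Among cells with INS under 100 the log2 ratio of CCSER1 in CD49a-negative over unsorted cells was 1.09, opposite in sign. PCDH7, a protocadherin, was at 240, 96.6 and 240 CPM in CD49a-positive, CD49a-negative and unsorted cells, and OPCML, an adhesion molecule of the IgLON family, was at 204, 85.8 and 191 CPM. Both were 2-fold lower in CD49a-negative cells than in either other library, with log2 ratios over unsorted cells of -1.23 and -1.07.

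LHFPL6 was at 84.9 CPM in CD49a-positive, 26.2 CPM in CD49a-negative and 29.8 CPM in unsorted cells, and was the only gene other than IAPP that was 2-fold higher in CD49a-positive than in unsorted cells. IAPP was at 379, 191 and 144 CPM, and its log2 ratio of CD49a-positive over unsorted cells, 1.34, was 0.49 without the highest cell of each library. CRH, which encodes corticotropin-releasing hormone, was at 24.1, 52.7 and 65.8 CPM, and its ratio of CD49a-positive over unsorted cells, -1.15, was -0.63 without the highest cells, 1 of which held 50.8% of the unsorted UMIs. The other genes 2-fold higher in CD49a-positive than in CD49a-negative cells were PDE10A, ROBO2, AC009264.1, DACH2, SULF1, NLGN4X, AC112770.1, EYS and PRKCA, and FXYD2 was lower besides NPW, with a log2 ratio of -1.15. Without the highest cell of each library, 4 of these genes were less than 2-fold apart, with log2 ratios of -0.89 for FXYD2, 0.67 for AC112770.1, 0.90 for AC009264.1 and 0.75 for PRKCA. ROBO2, a receptor for SLIT ligands, was at 295.5, 107 and 182 CPM in CD49a-positive, CD49a-negative and unsorted GCG-moderate cells and at 825, 349 and 542 CPM in all other kept cells.

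**Figure D5:**
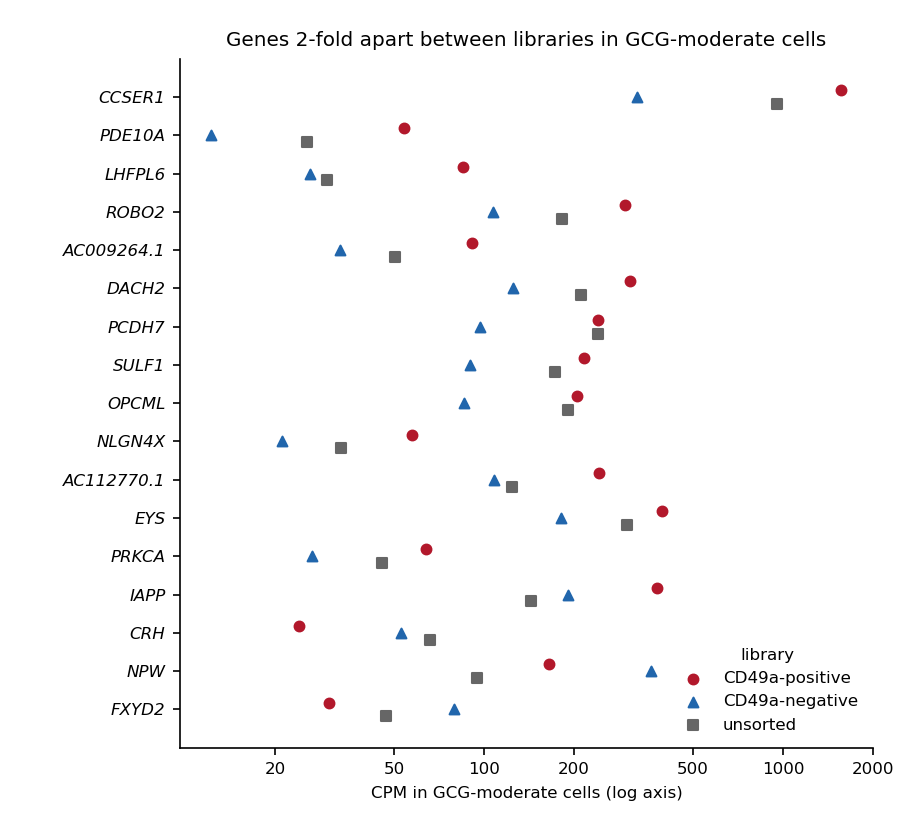
Levels (CPM, log axis) in GCG-moderate cells of each library, 1 point per library, for the 17 genes 2-fold apart in any of the 3 comparisons. CCSER1 runs from 326 CPM (CD49a-negative) to 1558 CPM (CD49a-positive), and NPW is highest in CD49a-negative cells at 360.4 CPM.

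In some groups most genes differed by less than 2-fold between CD49a-negative and unsorted GCG-moderate cells, mostly with the same sign within a group. Over unsorted cells, all 23 ribosomal genes had a log2 ratio above 0 (median 0.36), as did all 20 eligible oxidative phosphorylation genes (median 0.30), while 24 of 29 eligible axon guidance genes lay below 0 (median -0.36). The median over all eligible genes was -0.05. The summed levels differed in the same directions outside GCG-moderate cells. In CD49a-negative against unsorted GCG-high cells, ribosomal genes summed to 33805 against 30567 CPM, oxidative phosphorylation genes to 7069 against 6548 CPM and axon guidance genes to 7457 against 8613 CPM. In all other kept cells of the CD49a-negative against the unsorted library, the sums were 29523 against 27526 CPM for ribosomal, 6416 against 5605 CPM for oxidative phosphorylation and 9215 against 10808 CPM for axon guidance genes. For CD49a-positive over unsorted cells the medians were 0.03 for ribosomal, -0.06 for oxidative phosphorylation and 0.13 for axon guidance genes, against 0.01 for all eligible genes. For CD49a-positive over CD49a-negative cells, 0 of 23 ribosomal and 0 of 20 oxidative phosphorylation genes lay above 0, and 28 of 30 axon guidance genes did. The median MALAT1 share differed little between the libraries, at 2.01% (CD49a-positive), 1.94% (CD49a-negative) and 2.001% (unsorted). Alpha markers had medians of -0.09 for CD49a-positive over unsorted and 0.04 for CD49a-negative over unsorted cells.

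ITGA1, the gene of the sorted protein (chromosome 5, 52787896 to 52959210, plus strand), was at 41.4 CPM (95% Poisson interval 34.9 to 48.8) in CD49a-positive, 17.99 CPM (14.9 to 21.6) in CD49a-negative and 27.6 CPM (23.2 to 32.6) in unsorted GCG-moderate cells. The order fitted the labels 7 days after the sort, and the intervals did not overlap. In all other kept cells ITGA1 was at 122, 38.2 and 75.7 CPM. Against GCG-high cells ITGA1 was higher in GCG-moderate cells by 0.70 ± 0.14 on the log2 scale (edgeR adjusted p = 0.00273), and against GCG-and-INS cells it was lower, at -1.22 ± 0.13.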

How the data were processed

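Single cells of HUES8-derived islets were measured in 3 droplet libraries, 1 per sort group. The deposited matrices hold whole UMI counts by gene and barcode. The authors ran Cell Ranger 7.1.0 on GRCh38, per the file headers and the submitters' processing notes. The annotation release and the strand setting are not given in the sources used here. Each matrix held 36601 genes. Cells were taken by fixed limits on counts and no doublet caller was run; leaving out cells over 2 times the median depth was tried instead. The MALAT1 limit left out 319 (CD49a-positive), 173 (CD49a-negative) and 205 (unsorted) barcodes.

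Since cells are not replicates, the UMIs of a class were added up within each library, without the 4 genes of the rule. Classes were compared with edgeR 4.0.16 (quasi-likelihood, library as a block, adjusted p under 0.05), and with DESeq2 1.42.0 as an alternative, in R 4.3.3. The block stands for the library whose cells 2 sums share, not for a pairing of animals or cultures, and the p-values measure only the spread between these 3 libraries, which may be technical. On simulated counts with 200 genes changed 2-fold, the test recovered 89.0% against GCG-high cells (15328 genes) and 89.5% against GCG-and-INS cells (15235 genes). It called 6 and 7 other genes. The simulated sums had a small fixed spread, no difference between libraries and no genes carried by few cells. Genes called against GCG-high cells had a median absolute log2 fold change of 0.39 (higher) and 0.36 (lower). The simulated rates thus do not give the error of the test on these data. Intervals are at 95% and cover counting error only. Depth was 3404402 to 6448416 UMIs per library in GCG-moderate cells, at which 3 UMIs are 0.881, 0.465 and 0.604 CPM (CD49a-positive, CD49a-negative and unsorted).

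Genes were named by rule: the markers, the 4 genes of the rule, the 10 largest called changes in each direction at 50 CPM or more with the same sign in each library, the 8 largest ratios between libraries, genes among the 30 most overdispersed in each library, and members of 32 gene lists. Genes past 2-fold between libraries beyond the 8 largest (NLGN4X, AC112770.1, EYS and PRKCA) were named after their values were seen. The members, lists and first alternatives were chosen with earlier results of these data known, and further alternatives after seeing the data. One Y-linked gene is not named, and some genes that the rule takes are not reported here. Positions are from GENCODE release 29 (GRCh38), matched by identifier for 559 of 561 genes, which may not be the authors' release. Python 3.11.15, numpy 2.4.6, scipy 1.17.1, pandas 2.3.3 and matplotlib 3.10.9 were used.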

Additional observations from a re-analysis of the deposited data

Results flagged for a closer look

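Barcodes left out by the cell filter also held GCG in the moderate range. The hormone limits were met by 17 of 2437 such barcodes in the CD49a-positive library (0.698%, exact 95% interval 0.407 to 1.11). In the CD49a-negative library 23 of 763 met them (3.01%, 1.92 to 4.49), and in the unsorted library 13 of 760 did (1.71%, 0.914 to 2.91). They were not analysed in the comparisons.

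DCC differed in direction between libraries when GCG-moderate cells were set against GCG-high cells. Its log2 ratio was 0.0 in the CD49a-positive, -0.0702 in the CD49a-negative and 0.3295 in the unsorted library. The difference between libraries was not tested.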

How the results depend on the processing

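Of the values of named genes under alternatives to the class comparisons, 684 kept their direction and their side of the threshold, 17 kept their direction and lost the call, and 4, all of DCC against GCG-high cells, changed sign. These DCC values, none of them past the threshold, were -0.0057 with no filter on low genes, -0.0913 without the unsorted library (0.1214 without the CD49a-negative library, the highest of the 3), -0.0105 with GCG under 400 and -0.068 with MALAT1 at 1 to 3% of UMIs. The lost calls include CXCL1 and LPAR1 against GCG-high cells.

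The number of genes called against GCG-high cells (higher, then lower) was 603 and 741 with DESeq2, 845 and 844 with cells thinned to 10000 UMIs, and 749 and 649 in the MALAT1 window. Leaving out 1 library gave 961 to 1169 higher and 808 to 1341 lower genes, with 979 and 808 without the CD49a-negative library and 961 and 879 without the unsorted one. With the library as a block, as reported, the numbers were 1551 and 1569, and with no replicate block they were 159 and 24. Between the sort groups no paired analysis was possible because each has 1 library. Against GCG-and-INS cells the numbers were 1210 and 1220 with DESeq2, 1081 and 1071 thinned, and 808 and 894 in the window. Leaving out 1 library gave 1413 to 3128 higher and 1155 to 3009 lower genes, the fewest of both without the unsorted library. The cause was not tested.

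The GCG-moderate share (CD49a-positive, CD49a-negative, unsorted) moved with the limits themselves, to 2.89%, 6.27% and 4.44% with GCG under 400 and to 2.55%, 5.05% and 3.36% with INS under 100, where the difference of CD49a-positive minus CD49a-negative cells was -2.49 points. With GCG from 200 it was 7.27% in CD49a-negative and 4.92% in unsorted cells.

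Counts of genes 2-fold apart were small and moved with most settings. For CD49a-positive over unsorted cells they were 5 higher with 2 CPM added, 1 higher and 0 lower with 50 CPM added, 5 and 2 without the filter, 6 and 0 with cells weighted equally, 4 and 4 thinned, 10 and 3 with INS under 100, 5 and 0 without deep cells, and 1 and 0 without each gene's top cell. For CD49a-negative over unsorted cells they were 2 higher with 2 CPM added, 1 lower with 50 CPM added, 4 and 7 without the filter, 5 lower with cells weighted equally, 6 lower thinned, 13 and 8 with INS under 100, and 2 and 5 without deep cells. For CD49a-positive over CD49a-negative cells they were 21 higher with 2 CPM added, 3 and 0 with 50 CPM added, 1 lower with cells weighted equally, 10 lower thinned, 22 and 6 with INS under 100, and 1 lower without deep cells or without top cells. CCSER1 in CD49a-negative over unsorted cells changed sign with INS under 100, at 1.0878. NPW was past 2-fold in CD49a-negative over unsorted cells in all 9 alternatives run.

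Depth limits genes under about 1 CPM, and 80 to 155 cells a library limit what single cells carry.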

Other observations

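Members of smaller gene groups also passed in the same edgeR test of GCG-moderate against GCG-high cells. Of all genes tested 9.99% were higher and 10.1% lower, and some counts below are near these shares. Of 21 genes of glycolysis and glucose sensing 5 were lower, among them the lactate dehydrogenase genes LDHA and LDHB at -0.44 each, and GPD2, a mitochondrial glycerol phosphate dehydrogenase, was higher at 0.37. Of 18 genes of amino acid transport and metabolism 3 were lower: SLC3A2, an amino acid transporter chain, at -0.52, GLUL, the glutamine synthetase, at -0.48 and SLC7A8 at -0.27. Of 8 genes of retinoid handling 3 were lower, among them ALDH1A1, a retinaldehyde dehydrogenase, at -0.55. Of 16 genes of basement membrane and collagen 2 were higher, the glypican genes GPC5 at 0.74 and GPC6 at 0.34. Single members of other marker lists also passed, with the duct keratin KRT19 lower at -0.60 and the neuronal RNA-binding protein gene ELAVL3 higher at 0.85.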
